A study of Mus musculus with 55 samples.

Results

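The 10 genes described here carry or make the classical neurotransmitters. Slc17a6, Slc17a7 and Slc17a8 encode the vesicular glutamate transporters VGLUT2, VGLUT1 and VGLUT3. Slc32a1 encodes VGAT, which loads GABA and glycine into vesicles, and Slc6a5 encodes GlyT2, a glycine transporter of the plasma membrane rather than of vesicles. Gad1 and Gad2 encode GAD67 and GAD65, the decarboxylases that make GABA from glutamate. Slc18a1 and Slc18a2 encode the vesicular monoamine transporters VMAT1 and VMAT2, and Slc18a3 encodes VAChT, which loads acetylcholine. All 10 were found by name among the 47937 genes counted in bulk RNA-seq of mouse islets. They were chosen with their levels in βEedKO and wild-type islets known, so every difference between those genotypes is given for them as a description and no test of it is read.

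Whole islets came from male C57B6/J mice of 3 genotypes at 8 and 25 weeks of age, and were isolated with collagenase, picked by hand and kept in culture before RNA extraction. The genotypes were wild type (WT), Eed heterozygous (HET) and Eed -/- (βEedKO), in which RIP-Cre deletes floxed Eed in cells that express insulin. EED is a core subunit of Polycomb repressive complex 2 (PRC2), which deposits the silencing mark H3K27me3. There were 16 libraries, 3 of each genotype at 8 weeks, 3 of WT at 25 weeks, 2 of HET at 25 weeks and 2 of βEedKO at 25 weeks. A library held islets of a single mouse or a pair of mice, except that the βEedKO libraries at 25 weeks pooled islets of more animals. Whether WT and HET mice carried RIP-Cre, and whether the counting used strand, is not given in the sources used here. The same study deposited a segmentation of wild-type islet chromatin into states, which gives the state at each start site.

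A neuron releases the transmitter that its vesicular transporter pumps into synaptic vesicles, using a proton gradient across the vesicle membrane. These transporters and the glutamate decarboxylases therefore serve as the usual markers of transmitter phenotype in the nervous system. Islet cells share part of this machinery, since β cells make GABA with glutamate decarboxylase and load monoamines into secretory granules. In cells that do not use a given transmitter, its genes are commonly kept silent by Polycomb.

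The total count per library ran from 4645393 reads in WT replicate 2 at 25 weeks to 22925359 in a HET library at 8 weeks. Levels are given as CPM, the reads of a gene divided by the library's total after scaling by edgeR's trimmed mean of M-values (TMM), and 1 read was worth between 0.0403 CPM in βEedKO replicate 3 and 0.218 CPM in WT replicate 2 at 25 weeks. Eed itself lay at 23.8, 33.1 and 31.2 CPM in WT and at 14.9, 13.4 and 14.8 CPM in βEedKO at 8 weeks, and at 28.3, 22.0 and 19.3 CPM against 15.6 and 14.2 CPM at 25 weeks. βEedKO lay below WT without overlap at either age, and the Benjamini-Hochberg adjusted p-values from edgeR's quasi-likelihood test were 0.0881 and 0.142. The summed level of 9 acinar cell genes was 385632 CPM in βEedKO replicate 2 and 11882 CPM in replicate 3 at 25 weeks, and the summed level of 6 interferon-induced genes at 8 weeks was 54.6 CPM in WT replicate 1 and 43.1 CPM in βEedKO replicate 1 but 2941 to 4121 CPM in the other WT and βEedKO libraries.

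The start regions of the 6 members that differed most between βEedKO and WT are shown because all but Gad1 lay under bivalent chromatin in wild-type islets. Each sequence is from RefSeq on build GRCm38.p6, runs 5′ to 3′ on the plus strand, which is the strand of each gene, and ends before both the RefSeq and the GENCODE start. Capitals mark CG dinucleotides. The stretches are chr7:51621580-51621829 for Slc17a6, chr7:45163671-45163920 for Slc17a7, chr2:158610508-158610757 for Slc32a1, chr7:49910049-49910145 for Slc6a5, chr2:70561879-70562041 for Gad1 and chr2:22622077-22622204 for Gad2.
Slc17a6: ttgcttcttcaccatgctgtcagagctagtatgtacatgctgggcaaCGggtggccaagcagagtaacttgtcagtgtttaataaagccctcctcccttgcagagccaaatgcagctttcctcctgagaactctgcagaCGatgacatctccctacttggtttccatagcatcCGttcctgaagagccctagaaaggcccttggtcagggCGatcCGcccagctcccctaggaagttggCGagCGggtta
Slc17a7: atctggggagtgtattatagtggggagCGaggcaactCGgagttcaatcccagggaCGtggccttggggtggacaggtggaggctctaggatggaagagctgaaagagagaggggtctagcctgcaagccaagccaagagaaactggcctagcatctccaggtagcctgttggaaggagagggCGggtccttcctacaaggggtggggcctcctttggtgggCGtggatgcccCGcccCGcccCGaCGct
Slc32a1: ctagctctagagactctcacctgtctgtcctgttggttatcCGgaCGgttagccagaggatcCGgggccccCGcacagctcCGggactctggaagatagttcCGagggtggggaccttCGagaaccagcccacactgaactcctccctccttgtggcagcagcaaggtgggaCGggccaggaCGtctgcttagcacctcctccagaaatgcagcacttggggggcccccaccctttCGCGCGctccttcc
Slc6a5: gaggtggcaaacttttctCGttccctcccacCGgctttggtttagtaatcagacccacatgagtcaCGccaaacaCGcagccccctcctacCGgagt
Gad1: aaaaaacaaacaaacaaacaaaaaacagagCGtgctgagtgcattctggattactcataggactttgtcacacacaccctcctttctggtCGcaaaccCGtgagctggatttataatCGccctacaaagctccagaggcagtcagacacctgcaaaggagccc
Gad2: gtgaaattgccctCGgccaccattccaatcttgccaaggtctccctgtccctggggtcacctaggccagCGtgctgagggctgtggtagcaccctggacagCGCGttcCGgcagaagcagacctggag

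The stretch of Slc32a1 held 12 CG dinucleotides in 250 bases, including a run of adjacent ones beside the start, against 9 in Slc17a7 and 7 in Slc17a6 over the same length. In windows of 300 bases (250 before and 50 after the RefSeq start), which matched 9 of the 10 members, the ratio of observed to expected CG was 0.849 in Gad1, 0.804 in Slc18a3, 0.659 in Slc6a5, 0.574 in Slc32a1, 0.543 in Gad2, 0.438 in Slc17a7, 0.398 in Slc18a2, 0.373 in Slc17a6 and 0.279 in Slc17a8. The median over all 32851 such windows was 0.384, so 7 of the 9 lay above it, and Gad1 came closest to the CG-rich end, with 16.9% of windows at or above its value. The members thus ranged from CG-rich to ordinary starts. The core of RE1, the element bound by the neuronal repressor REST, was searched on both strands as the letters AGCACC followed, after any 2 bases, by GGACAG. It was found without a mismatch upstream of Gad2, as AGCACCCTGGACAG at chr2:22622164-22622177 on the plus strand, and in 17 of all windows (0.0517%). Slc17a6 held AGGACCACGGACAG, with 1 mismatch, at chr7:51621864-51621877 on the minus strand, between the RefSeq and GENCODE starts. Up to 2 mismatches in the 12 fixed letters occurred in 4.46% of windows, and the other 7 members had more. No window was matched for Slc18a1.

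In the segmentation, made by the authors from ChIP-seq and DNA methylation of young wild-type islets in bins of 200 bp, most of the members started in bivalent chromatin, which carries both the active mark H3K4me3 and H3K27me3. The start sites of Slc17a6, Slc32a1, Slc6a5, Gad2 and Slc18a2 lay in state M (bivalent, high H3K27me3), and those of Slc17a7 and Slc18a3 lay in state L (bivalent, high H3K4me3) with state M on both sides. Slc17a8 started in state N, a Polycomb-repressed state without the active mark, and Slc18a1 in state A, an active start site. The 7 starts in L or M compare with 18.2% of 20477 counted protein-coding genes on autosomes, and the 5 in M with 5.73%. These are 1 segmentation with replicates averaged, so no spread between animals can be given.

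The gene record of Gad1 (ENSMUSG00000070880.10, chr2:70553072-70602014) began in state O, also Polycomb-repressed, but its annotated basic transcripts start 8970, 9124 and 9827 bases further downstream. Those starts lay in the active states A, A and B, inside a stretch of L and M. Gad1 was thus the 1 member whose active start sat within bivalent chromatin, whereas Gad2 (ENSMUSG00000026787.3, chr2:22622205-22693874) had its only basic start in M.

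Around the start, the unbroken run of bivalent and Polycomb states K to O measured 16800 bp at Slc17a6 (ENSMUSG00000030500.6, chr7:51622006-51671119), 13800 bp at Slc32a1 (ENSMUSG00000037771.11, chr2:158610767-158615748), 26000 bp at Slc6a5 (ENSMUSG00000039728.15, chr7:49910146-49963856) and 17000 bp at Gad2. It measured 6200 bp at Slc17a7 (ENSMUSG00000070570.4, chr7:45163949-45176142) and 3000 bp at Slc17a8 (ENSMUSG00000019935.16, chr10:89574020-89621253). The median over 6930 genes that start in these states was 9600 bp. Slc32a1 was the member whose whole gene lay in state M (100.0% of its length), while M covered 65.1% of Slc17a7 and 81.4% of Slc18a3. The longest run, 53200 bp, surrounded Slc18a3 (ENSMUSG00000100241.1, chr14:32462438-32464850), which lies within the Chat locus, and 21200 bp surrounded Slc18a2 (ENSMUSG00000025094.7, chr19:59260896-59296012). Slc18a1 (ENSMUSG00000036330.12, chr8:69037711-69089235) had 50.8% of its length in the active state I.

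**Figure D1:**
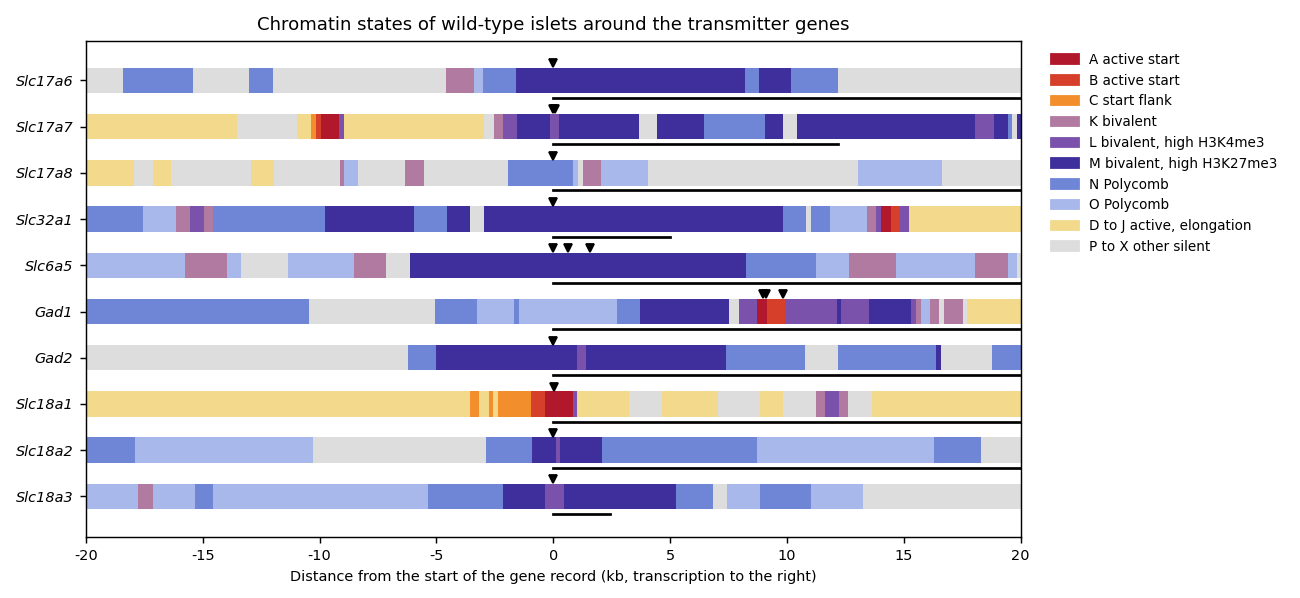
Chromatin states of wild-type islets from 20 kb before to 20 kb after the start of each gene record, with distance in kb on the x axis and transcription to the right. Colours give the state, black lines the gene and triangles the starts of basic transcripts. State M covers the start of 5 members, and the Gad1 triangles fall on active states between bivalent ones.

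Among the glutamate transporters, Slc17a6 and Slc17a7 had no read in any of the 6 WT and HET libraries at 8 weeks and were found in every βEedKO library. Slc17a6 had 79, 25 and 18 reads (3.75, 1.25 and 1.56 CPM) in βEedKO replicates 1, 4 and 5 at 8 weeks. At 25 weeks it had 333 and 490 reads (25.3 and 19.8 CPM) in βEedKO, against 1, 0 and 1 in WT and 1 and 1 in HET. Every βEedKO library therefore stood above every WT and HET library of its age, as it did against WT for 6.54% of all genes tested at 8 weeks and 24.7% at 25 weeks. The levels in βEedKO at 25 weeks did not overlap those at 8 weeks. Slc17a7 had 20, 34 and 11 reads (0.948, 1.70 and 0.951 CPM) in βEedKO at 8 weeks. It had 67 and 183 reads (5.09 and 7.38 CPM) in βEedKO at 25 weeks, with no read in the 5 WT and HET libraries of that age. Its groups were separated in the same way.

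Against the limit that a count of 0 allows, taken as 3 reads over the WT group, Slc17a6 at 8 weeks was at least 40.1-fold higher in βEedKO and Slc17a7 at least 21.4-fold higher. At 25 weeks Slc17a7 was at least 67.7-fold higher. Slc17a6 then had 2 reads in WT. Its ratio of pooled CPM (the reads of a group over its summed TMM-scaled totals) was 334.3, with a 95% counting interval from 92.3 to 2770. These limits cover counting error only. Slc17a8, the transporter found in neurons that also use another transmitter, did not follow its family: it had 0 to 4 reads in every library, and it was the 1 member that did not pass the expression filter.

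**Figure D2:**
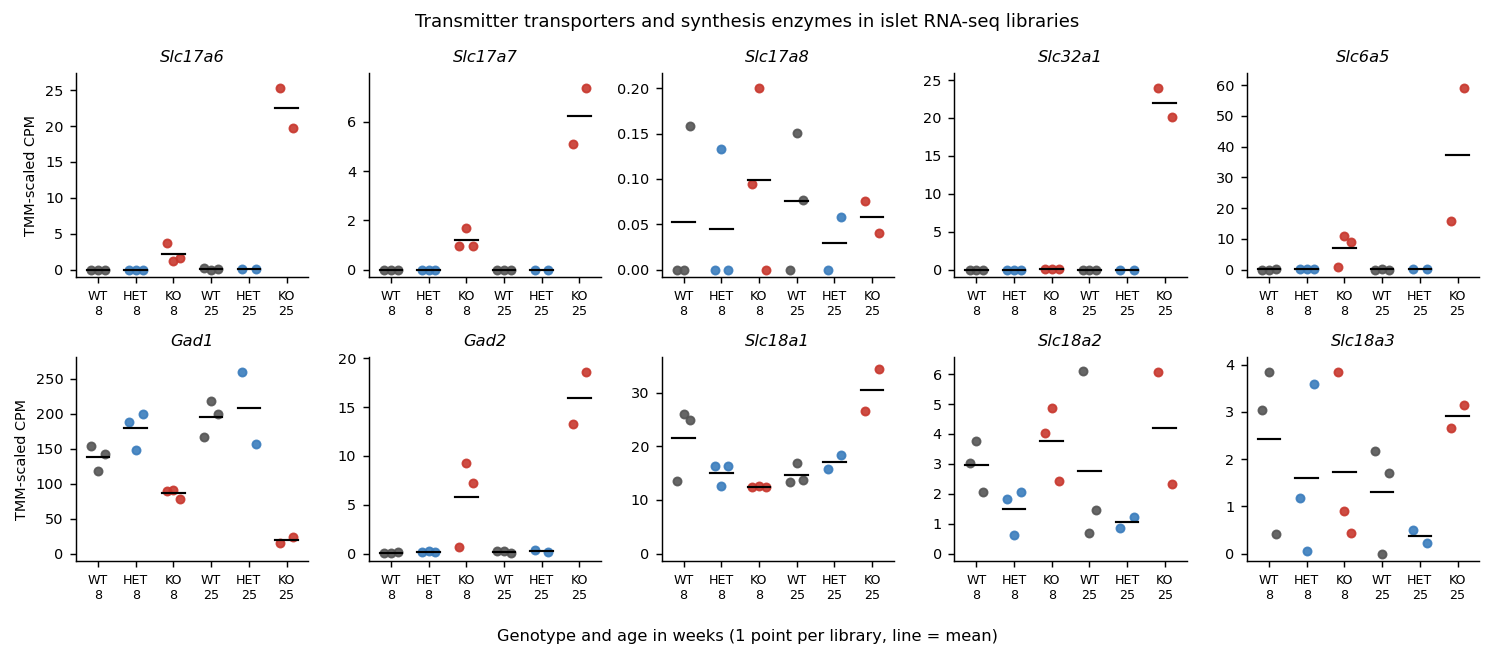
TMM-scaled CPM (y axis, linear, a scale of its own for each gene) of the 10 members in each of 16 islet libraries, by genotype and age in weeks on the x axis. Points are libraries and lines are group means. Slc17a6, Slc17a7, Slc32a1, Slc6a5 and Gad2 are highest in the 2 βEedKO libraries at 25 weeks, where Gad1 is lowest.

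Slc32a1, which defines neurons that release GABA or glycine, was close to the limit of detection in βEedKO at 8 weeks and abundant at 25 weeks. It had 2, 1 and 1 reads in the βEedKO libraries at 8 weeks and no read in the 6 WT and HET libraries of that age. At 25 weeks it had 315 and 498 reads (24.0 and 20.1 CPM) in βEedKO and again none in the 5 WT and HET libraries. Of all members it thus appeared latest, with a ratio to WT of at least 1.32 at 8 weeks and at least 220.2 at 25 weeks.

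Slc6a5, the transporter by which glycine neurons take glycine back up, had at most 4 reads in each WT and HET library. In βEedKO it had 14, 217 and 104 reads (0.664, 10.9 and 8.99 CPM) at 8 weeks and 206 and 1464 reads (15.7 and 59.1 CPM) at 25 weeks. Gad2 followed it closely, with 15, 186 and 84 reads (0.711, 9.32 and 7.26 CPM) at 8 weeks and 175 and 461 reads (13.3 and 18.6 CPM) at 25 weeks. Both genes were low in βEedKO replicate 1 at 8 weeks and high in replicates 4 and 5. Slc17a6 had the opposite order, since replicate 1 was its highest library at that age. Replicate 1 was also the βEedKO library with low interferon-induced genes. WT replicates 3 and 4, in which those genes were as high, had 0 and 1 reads of Slc6a5 and 1 and 3 reads of Gad2. The part of the interferon-induced genes in the spread was not tested.

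With 1 read of Slc6a5 in WT at 8 weeks and 2 at 25 weeks, the ratio of pooled CPM was 330.4 (95% counting interval 58.9 to 13100) and 678.4 (188 to 5610). Gad2 had 5 reads in WT at each age, and its ratio was 56.2 (23.8 to 174) and 103.3 (44.1 to 319). At 25 weeks the 2 βEedKO libraries differed by a wide margin in Slc6a5, and less in Gad2, Slc32a1 and Slc17a6. The TMM factors of these libraries were 0.76 and 1.497, and by library size alone replicates 2 and 3 were at 10.1 and 27.8 CPM in Gad2, 18.2 and 30.1 in Slc32a1 and 19.2 and 29.6 in Slc17a6, so that the order of the last pair of genes turned. The library with the higher Slc6a5 was replicate 3, whose acinar cell genes were low.

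Gad1 moved against all of these. It was the most abundant member in WT per length, at 154, 118 and 142 CPM at 8 weeks and 166, 219 and 200 CPM at 25 weeks. In βEedKO it was at 90.1, 90.8 and 77.6 CPM at 8 weeks and at 14.9 and 23.5 CPM at 25 weeks, below every WT library of the same age, which 4.86% of all genes were at 8 weeks and 15.9% at 25 weeks. HET islets were at 189, 149 and 200 CPM at 8 weeks and at 260.3 and 156 CPM at 25 weeks. The ratio of pooled CPM of βEedKO to WT was 0.635 (counting interval 0.611 to 0.659) at 8 weeks and 0.101 (0.0937 to 0.109) at 25 weeks. These intervals cover counting error only and leave out the spread between libraries. By edgeR's quasi-likelihood test Gad1 was not called at 8 weeks (log2 difference -0.68, SE 0.21, adjusted p = 0.348). The antisense gene Gad1os overlaps Gad1, and the libraries do not mark strand, but it had at most 0.778 CPM in any library.

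As whole islets were sequenced, fewer cells of a type and less RNA per cell cannot be told apart. The fall of Gad1 went along with that of β cell genes. All 8 β cell markers had a negative log2 difference in βEedKO at 25 weeks, and 7 were called lower, against 2.02% of all genes. Their summed level was 13864 to 17192 CPM against 122235 to 218342 CPM in WT. At 8 weeks the same sum overlapped between βEedKO (129993 to 213569 CPM) and WT (136551 to 205532 CPM), while Gad1 did not. The sum hides the single markers, of which 1 of 8 had a positive log2 difference at 8 weeks and 0 were called. Their median was -0.48, beside -0.68 in Gad1. The share of β cell RNA in the level of Gad1 was not tested.

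The monoamine and acetylcholine transporters showed no common direction at 8 weeks, while at 25 weeks their mean levels were all higher in βEedKO than in WT. The ratios of pooled CPM were then 2.11, 2.00 and 2.87 for Slc18a1, Slc18a2 and Slc18a3. Their fitted log2 differences were 1.00, 0.64 and 1.18, and none was called (adjusted p = 0.074, 0.725 and 0.682 by edgeR's quasi-likelihood test). Slc18a1 was at 13.6, 26.1 and 24.9 CPM in WT and 12.3, 12.7 and 12.5 CPM in βEedKO at 8 weeks, and at 13.3, 16.8 and 13.7 CPM in WT and 26.5 and 34.4 CPM in βEedKO at 25 weeks. βEedKO thus lay below WT at 8 weeks (a ratio of pooled CPM of 0.572) and above it at 25 weeks, each time without overlap. Of all genes, 4.86% lay below WT in this way at 8 weeks and 24.7% above it at 25 weeks. Slc18a1 was not called at 8 weeks either (adjusted p = 0.422 by the same test). Slc18a2 ranged from 0.621 to 6.10 CPM over the 16 libraries and Slc18a3 from 0 to 3.83 CPM in WT and 0.432 to 3.84 CPM in βEedKO. Slc18a2 overlapped between βEedKO and WT at both ages, although its start site was in the same state M as those of Slc32a1 and Gad2. Set against HET, Slc18a2 in βEedKO was at 2.42 to 4.86 against 0.621 to 2.06 CPM at 8 weeks, and at 2.34 to 6.08 against 0.871 to 1.22 CPM at 25 weeks. Slc18a1 and Slc18a3 were also higher than in HET at 25 weeks. The share of all genes that separate between βEedKO and HET was not counted, so nothing is read from these levels.

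Slc18a3 varied widely within groups at 8 weeks, and its reads may in part belong to Chat, the acetylcholine-synthesising enzyme whose locus contains it. At 8 weeks WT replicates 1, 3 and 4 had 48, 66 and 8 reads of Slc18a3, HET replicates 1, 2 and 3 had 17, 1 and 52, and βEedKO replicates 1, 4 and 5 had 81, 18 and 5. At 25 weeks WT had 10, 0 and 22 reads, HET 9 and 4, and βEedKO 35 and 78. Chat itself stayed at or under 1.31 CPM in every library. Some markers of nerve fibres varied in a like order at 8 weeks: Stmn2 was at 12.99, 21.3 and 1.75 CPM in WT, 5.15, 1.91 and 17.0 CPM in HET, and 17.4, 8.02 and 5.45 CPM in βEedKO. In each genotype at 8 weeks the library with the most Slc18a3 was that with the most Stmn2. Other markers of the same pan-neuronal list did not follow this order: Rbfox3, Elavl4 and Tubb3 were highest among these WT libraries in replicate 1. The summed level of the list was 405.4, 469.2 and 465.6 CPM in WT replicates 1, 3 and 4. Stmn2, Nefl and Gap43 were picked after their values were seen, and the part of nerve fibres in the Slc18a3 reads was not tested.

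**Figure D3:**
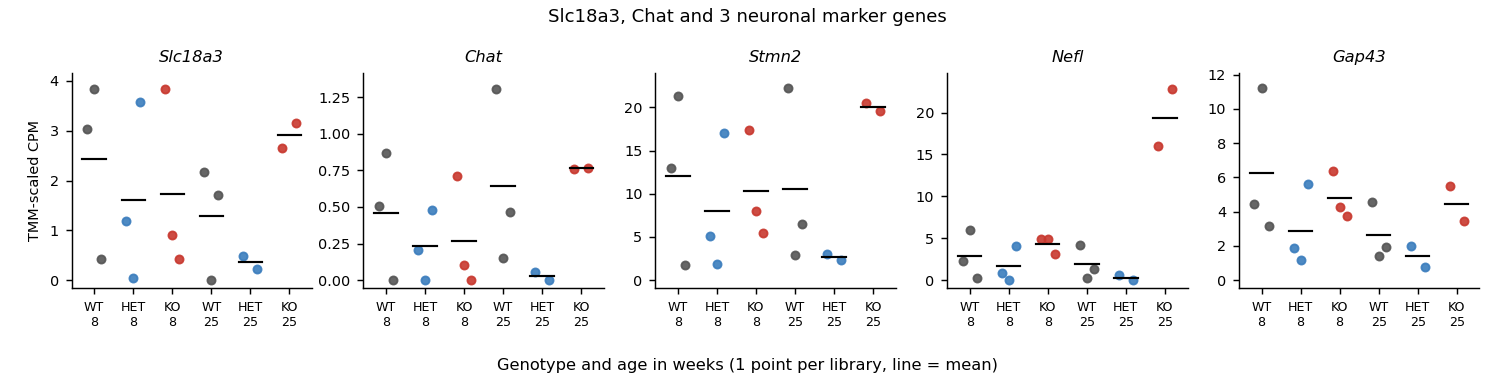
TMM-scaled CPM (y axis, linear) of Slc18a3, its host locus gene Chat and the neuronal markers Stmn2, Nefl and Gap43, by genotype and age in weeks (x axis). Points are libraries and lines are group means. Slc18a3 and Stmn2 are both lowest among WT libraries at 8 weeks in replicate 4, at 0.423 and 1.75 CPM, while Nefl is highest in βEedKO at 25 weeks.

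Fitted log2 fold changes put sizes on these differences. At 25 weeks βEedKO differed from WT by 8.15 (SE 0.89) in Slc17a6, 8.96 (SE 1.39) in Slc6a5, 6.48 (SE 1.01) in Gad2 and -3.40 (SE 0.28) in Gad1. At 8 weeks the values were 7.99 (SE 1.41) in Slc6a5, 5.81 (SE 0.95) in Gad2 and -0.68 (SE 0.21) in Gad1. Where WT had no read, as for Slc17a7 and Slc32a1, the fitted value depends on the prior count and is no bound. Genes were called at an adjusted p under 0.05 by edgeR. Of the 9 members tested, 6 were called at 25 weeks, 5 higher and 1 lower, against 6.6% of 18685 genes (4.58% higher and 2.02% lower). At 8 weeks Slc17a6, Slc17a7, Slc6a5 and Gad2 were called, all 4 higher, against 0.434% of genes (0.428% higher and 0.00535% lower). With the replicate number as a block 5 were left at 25 weeks, Slc17a7 having an adjusted p of 0.0541, and 0 at 8 weeks, with adjusted p-values from 0.0812 for Slc6a5 to 0.489 for Slc17a7. Leaving out 1 library in turn gave 6 or 7 members at 25 weeks. At 8 weeks it gave 4 without βEedKO replicate 1, 1 without βEedKO replicate 4, 2 without each WT library of 25 weeks, and 0 without any other library. As these contrasts chose the members, nothing is read from the counts.

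The 2 ages differed in their log2 difference between βEedKO and WT by -2.72 (SE 0.33) in Gad1 and by 1.79 (SE 0.40) in Slc18a1. By edgeR's quasi-likelihood test of this difference Gad1 was the 1 member of 9 called (adjusted p = 0.00967, against 0.198% of genes called). Its adjusted p was 0.0611 with the replicate block, and its call was also lost without βEedKO replicate 2 at 25 weeks. The adjusted p of Slc18a1 was 0.135, and 0.0307 without WT replicate 1 of 8 weeks. Slc17a7 and Slc32a1 had no WT read at either age, so edgeR could not estimate their difference between the ages. Slc17a6 had no WT read at 8 weeks. For these genes a missing call does not show that the ages were alike. DESeq2 called Slc32a1 and Slc18a1 as well. These values, too, describe members chosen with both ages known.

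**Figure D4:**
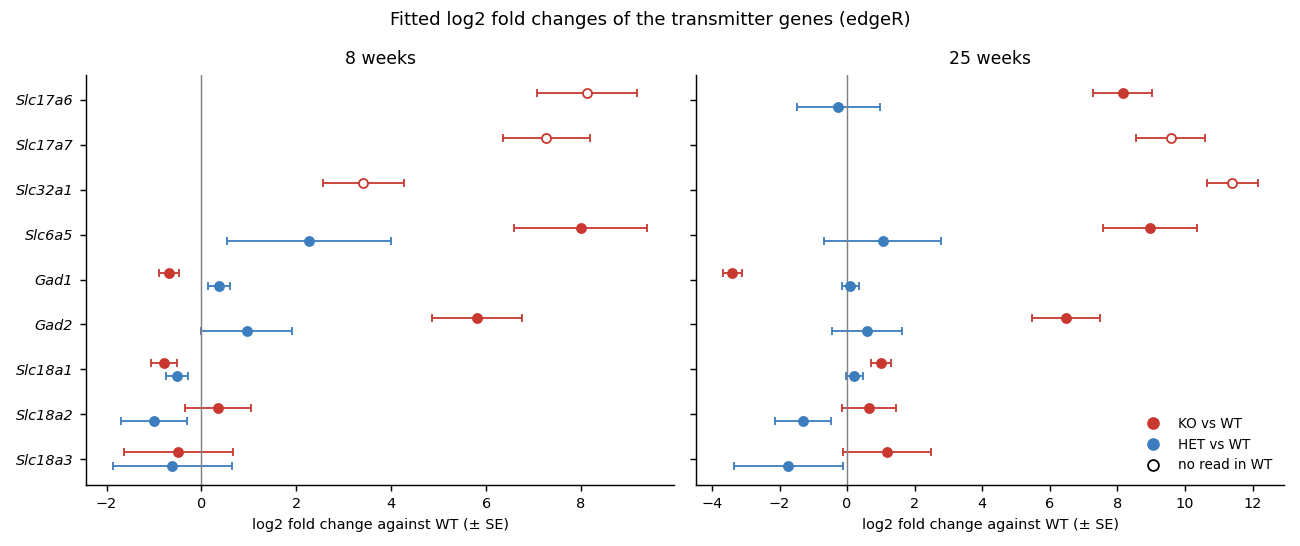
Fitted log2 fold changes against WT (x axis, with SE as bars) of the 9 members tested, for βEedKO and HET at 8 and 25 weeks. Hollow points are genes with no read in WT, whose value depends on the prior count. The βEedKO points of Slc17a6, Slc6a5 and Gad2 lie between 5.81 and 8.96 at both ages, and the HET points between -1.73 and 2.27.

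Per kilobase of exon, Gad1 ranked first in WT, at 18.1 CPM per kb at 8 weeks and 25.5 at 25 weeks, followed by Slc18a1 at 3.98 and 2.70, and Slc18a3 and Slc18a2 came next without separation from each other. In βEedKO at 8 weeks Gad1 (11.3 CPM per kb) and Slc18a1 (2.31) still led, and Gad2 (0.981), Slc6a5 (0.950), Slc18a2 (0.722), Slc18a3 (0.715) and Slc17a6 (0.405) overlapped from neighbour to neighbour. At 25 weeks the order was another one. Slc32a1 had the highest mean, 7.87 CPM per kb, before Slc18a1 (5.64), Slc6a5 (5.19) and Slc17a6 (4.18), which overlapped from neighbour to neighbour. Slc32a1 lay wholly above Slc18a1 and Slc17a6. The range of Slc6a5, 2.17 to 8.20, overlapped that of Slc32a1 (7.18 to 8.56) and those of Gad2 and Gad1. Gad2 (2.71) and Gad1 (2.51) overlapped next, followed by Slc18a3 (1.20), Slc17a7 (1.16) and Slc18a2 (0.806), and Slc17a8 (0.0123) was last. In WT of that age Gad1 stood well above Gad2 (0.0295). The order in βEedKO at 25 weeks depends on the length used: per kilobase of the longest transcript, Slc18a1 (9.78) came first and overlapped Slc32a1 (7.87), and Gad1 (4.14 and 6.52 in the 2 libraries) lay wholly above Gad2 (2.32 and 3.24).

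Heterozygous islets, which the choice of members did not use, addressed whether loss of 1 Eed allele moved these genes. No member passed the test. In the fit of all 16 libraries by edgeR's quasi-likelihood test 0 of 9 members were called against WT at either age, and 0% of all 18828 genes were. Of those genes 2743 at 8 weeks and 210 at 25 weeks had an unadjusted p under 0.05, and DESeq2 called 413 and 3. Slc17a6, Slc17a7 and Slc32a1 had no read in HET at 8 weeks, and only Slc17a6 had any at 25 weeks, 1 in each library. WT had no read of these genes at 8 weeks either, and none of Slc17a7 and Slc32a1 at 25 weeks. These genes, and Slc6a5 and Gad2 as well, passed the filter through the βEedKO libraries alone. Where neither group had a read, no call was possible and the groups could only overlap. For such genes neither the 0 of 9 nor the overlap given below says anything. At 8 weeks the log2 difference was 0.37 (SE 0.23, adjusted p = 0.444) in Gad1, -0.51 (SE 0.23, adjusted p = 0.335) in Slc18a1, 0.95 (SE 0.96, adjusted p = 0.641) in Gad2 and 2.27 (SE 1.73, adjusted p = 0.531) in Slc6a5. At 25 weeks it was 0.10 (SE 0.25) in Gad1 and 0.22 (SE 0.26) in Slc18a1, both with an adjusted p of 1. HET and WT overlapped for every member at both ages, while HET was wholly above WT for 10.3% of genes and wholly below it for 9.09% at 8 weeks, and for 8.91% and 7.06% at 25 weeks. Gad2 and Slc6a5 had at most 10 reads in any of these groups, so differences of several fold were not detectable at this depth. The WT libraries are those set against βEedKO above. Without WT replicate 1, the WT library of 8 weeks with low interferon-induced genes, 601 genes were called at 8 weeks, and Slc18a1, lower in HET, was the 1 member among them. All HET libraries of 8 weeks had low interferon-induced genes (sums of 41.4 to 52.8 CPM), while WT replicates 3 and 4 were at 2941 and 3126 CPM. Genotype and interferon-induced genes therefore cannot be told apart in that fit, and only in part with WT replicate 1 kept.

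Across the 16 libraries, the genes whose log2(CPM + 0.5) was most like that of Slc17a6 were the RNA-binding protein gene Lin28b (Pearson r = 0.996) and the transcription factor genes Tfap2e (0.995) and Sp8 (0.993), out of 18827 genes. For Slc32a1 they were the transcription factor genes Hoxc11, Pax3 and Tfap2b (0.999 each), which had at most 0.0492 CPM in βEedKO at 8 weeks and 1.86, 11.1 and 22.6 CPM at 25 weeks. For Slc6a5 they were the vesicular zinc transporter gene Slc30a3 (0.991), the member Gad2 (0.990) and the transcription factor gene Gsx1 (0.990). The points share libraries, and the 2 βEedKO libraries at 25 weeks set most of each r. Slc32a1 thus fell with genes that appeared late, and Slc6a5 with genes already present in βEedKO at 8 weeks.

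The other genes that make, carry, sense and release transmitters were counted in 9 lists, of which 155 genes passed the filter. At 25 weeks 36 were called higher in βEedKO (4.58% of all genes were) and 6 lower (2.02%), with a median log2 difference of 0.50 against 0.03 over all genes. With the replicate block 26 genes were called in place of 42, 17 higher and 9 lower, and the number called was 22 and 24 without WT replicates 3 and 4, and 23 and 17 without βEedKO replicates 2 and 3 of 25 weeks. Of the genes named below, Lhx5, Grid1, Gria1, Grik3, Maob, Slc1a2, Rab3c and Rims3 were called in all 19 alternatives, Tph1 and Gabra3 in all but the block, and the others lost the call without at least 1 library of 25 weeks. The lists differed in where the calls fell, but they were chosen with earlier results of these data known. Genes with almost no read in WT, such as Pax2, Lhx5 and Gria1, passed the filter only through the βEedKO libraries. Genes silent in both genotypes were left out. This can raise the higher calls and the medians of lists with many such genes, so nothing is read from how the lists differ. Transcription factors of transmitter phenotype had 14 of 24 higher and 1 lower, with a median of 4.70, and glutamate receptors 8 of 18 higher and 0 lower, with a median of 2.51. Release machinery, which a β cell uses for insulin granules as well, had 4 of 36 higher and 1 lower with a median of -0.11, and 0 of 18 proton pump subunits were called (median -0.37).

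Of the transcription factors, Pax2, which acts in GABA and glycine interneurons, had no read in WT at 25 weeks and 11.2 ± 0.937 CPM (mean ± SD of 2 libraries) in βEedKO. Lhx5 went from no read to 9.41 ± 1.58 CPM, and Lmx1a, a factor of dopamine neurons, from no read to 4.90 ± 0.708 CPM. Isl1, which endocrine cells need, fell from 147.9 ± 25.9 to 51.2 ± 3.94 CPM (log2 difference -1.58, SE 0.40, adjusted p = 0.0423). Pax2, Lhx5 and Isl1 were also called with the replicate block, and Lmx1a was not (adjusted p = 0.0889). The call of Pax2 was lost without either βEedKO library of 25 weeks, and that of Isl1 with library size alone and without each of 8 libraries (adjusted p up to 0.228).

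The AMPA receptor subunit gene Gria1 was at 0.0258 ± 0.0446 CPM over the 3 WT libraries and 8.47 ± 1.66 CPM over the 2 of βEedKO at 25 weeks, and the kainate receptor subunit gene Grik3 at 1.57 ± 1.49 and 72.5 ± 2.50 CPM. The delta receptor gene Grid1 rose from 0.0773 ± 0.134 to 23.4 ± 1.51 CPM, and the NMDA receptor subunit gene Grin2b from 0.0258 ± 0.0446 to 5.01 ± 3.01 CPM (adjusted p = 0.0526 with the block, unlike the other 3). Of 19 GABA and glycine receptor genes 3 were higher: Gabra3, Gabrb1 and Gabrd, at 2.52, 2.08 and 3.30 CPM in βEedKO, each with a call lost under the block (adjusted p = 0.0635, 0.12 and 0.0604). The glycine receptor β subunit gene Glrb was lower, at 19.4 ± 4.05 against 39.6 ± 3.16 CPM (log2 difference -1.08, SE 0.24). Receptor genes for glutamate thus held more of the calls than those for GABA and glycine, a difference that was not tested.

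Among 9 other synthesis enzymes, Tph1, which makes serotonin, was called higher, from 0.0258 to 15.9 ± 12.8 CPM (adjusted p = 0.00471, and 0.0695 with the block). The dopamine-making enzyme gene Th fell from 43.9 ± 5.66 to 10.1 ± 2.26 CPM, and the glutamine synthetase gene Glul from 399.7 ± 51.0 to 138.4 ± 5.76 CPM. Of 9 breakdown enzymes the monoamine oxidase gene Maob fell from 162.4 ± 12.1 to 36.8 ± 5.22 CPM and the acetylcholinesterase gene Ache rose from 22.4 ± 0.668 to 51.0 ± 8.95 CPM (adjusted p = 0.0842 with the block). The genes for making and for breaking down monoamines were thus called in both directions.

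Of 14 plasma membrane transporters 3 were higher, the glial glutamate transporter gene Slc1a2 (0.230 to 9.72 ± 2.34 CPM), the glutamine transporter gene Slc38a1 (2.996 to 41.8 ± 23.5 CPM) and the dopamine transporter gene Slc6a3 (no read in WT, 1.68 ± 0.0151 CPM). With the block Slc1a2 kept its call, while Slc38a1 (adjusted p = 0.0695) and Slc6a3 (adjusted p = 0.137) did not. Of 8 other vesicle proteins, Slc30a3 went from no read to 5.30 ± 2.44 CPM and Sv2c, a synaptic vesicle protein, from 2.87 to 16.8 ± 4.55 CPM, both lost with the block (adjusted p = 0.0597 and 0.0756). In the release machinery the vesicle GTPase gene Rab3c rose from 8.02 ± 3.43 to 48.6 ± 2.75 CPM and the rabphilin gene Rph3a from 0.0501 to 3.87 ± 0.115 CPM (adjusted p = 0.0815 with the block). Rims3, an active zone protein gene, fell from 186.9 ± 27.1 to 42.1 ± 3.39 CPM.

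At 8 weeks 3 of the 155 genes were called, all higher in βEedKO (0.428% of all genes were): Gabrd at 1.23 ± 0.137 against 0.0581 ± 0.00523 CPM (mean ± SD of 3 libraries each), Grik3 at 20.5 ± 9.96 against 0.990 ± 0.751 CPM, and the complexin gene Cplx3 at 5.43 ± 0.747 against 0.382 ± 0.185 CPM. Their adjusted p-values from edgeR were 0.0423, 0.0335 and 0.00697. With the block 0 of the 155 were called, and leaving out 1 library in turn gave 1 to 5. Cplx3 was not called at 25 weeks, where it was at 3.46 ± 0.588 CPM in βEedKO and 2.33 ± 0.527 CPM in WT.

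**Figure D5:**
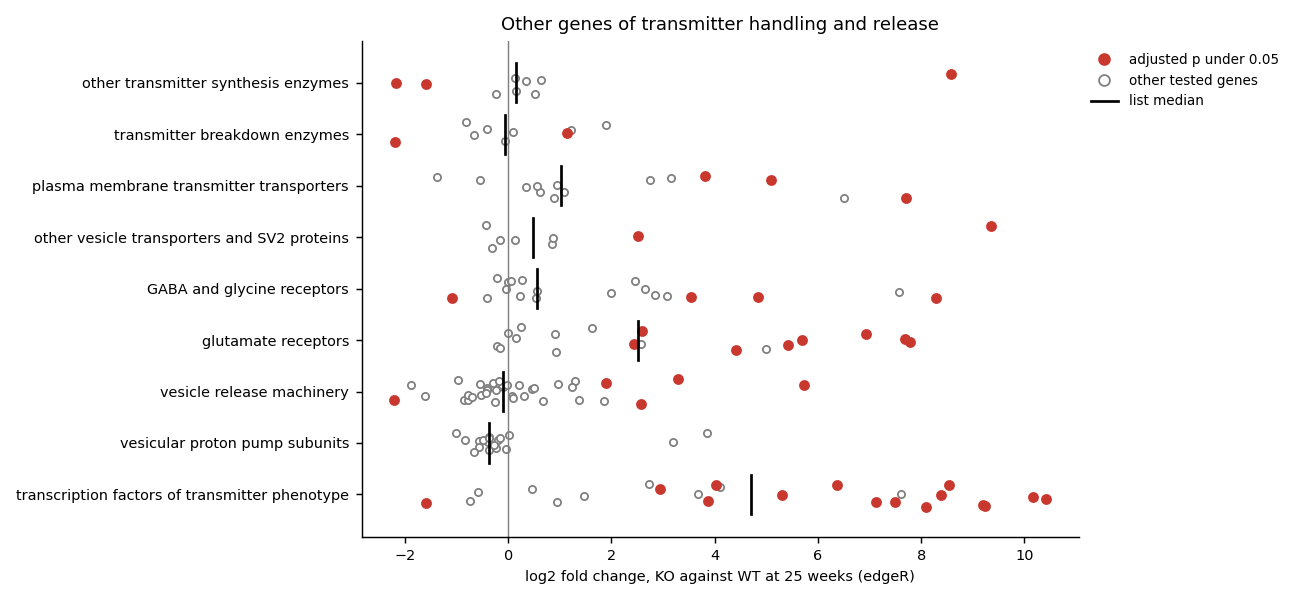
Log2 fold change of βEedKO against WT at 25 weeks (x axis) of the tested genes in 9 lists of transmitter handling and release. Filled points have an adjusted p under 0.05 and vertical bars are list medians. The medians of the transcription factors (4.70) and glutamate receptors (2.51) lie farthest to the right, and the proton pump subunits hold no filled point.

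The summed level of the neuronal markers did not stand higher in βEedKO, though single markers did. Of 12 pan-neuronal markers 1, the RNA-binding protein gene Elavl3, was called higher in βEedKO at 25 weeks, at 16.3 and 23.6 CPM against 0.376 to 1.09 CPM in WT. The neurofilament gene Nefl was at 16.0 and 22.8 CPM against 0.226 to 4.14 CPM (log2 difference 3.44, SE 1.09, adjusted p = 0.0975 by edgeR), Stmn2 overlapped between the genotypes, and Elavl4, at 20.2 and 22.3 against 36.6 to 41.4 CPM, stood lower without a call. The median log2 difference of the 12 was 0.50. The summed level of the list, some genes of which endocrine cells also express, was 346.4 to 459.2 CPM in βEedKO and 443.3 to 488.5 CPM in WT. Of 8 glial and Schwann cell markers 0 were called, with sums of 118 to 168 CPM in βEedKO and 89.4 to 168 CPM in WT. Duct cell genes (575 to 652 against 257 to 309 CPM, 3 of 6 called higher), stromal genes (151 to 188 against 60.1 to 77.3 CPM, 3 of 5) and alpha, delta and PP cell genes (15397 to 17057 against 10079 to 12112 CPM, 2 of 8) did stand higher in βEedKO at 25 weeks. Macrophage genes overlapped (102 to 343 against 56.6 to 113 CPM), and 1 of 5 was called higher. The part of these cell types in the levels of the transmitter genes was not tested.

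Over all genes tested, 222 of 822 with state M at the start (27.0%) were called higher in βEedKO at 25 weeks, 337 of 2320 with state L (14.5%), 55 of 1119 with state N or O (4.92%) and 98 of 8784 with state A or B (1.12%). In state A or B, that of the Gad1 transcripts and of Slc18a1, 239 genes (2.72%) were called lower. Of the 5 members that started in M, Slc17a6, Slc32a1, Slc6a5 and Gad2 lay wholly higher in βEedKO than in WT at 25 weeks, as did 24.7% of all genes, and Slc18a2 overlapped. These members were chosen for that difference. Of the 2 in L, Slc17a7 did not overlap, and Slc18a3 was at 2.66 and 3.15 CPM in βEedKO against at most 2.18 CPM in WT. The call of Gad1, lower, and the higher level of Slc18a1 were those of the 2 members with active starts.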

How the data were processed

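Per the labels and methods, the authors aligned reads with TopHat2 2.0.13 to GRCm38 and deposited featureCounts (Subread 1.5.0-p1) counts per Gencode gene, not normalized. They also deposited EpicSeg chromatin states of wild-type islets as letters in bins of 200 bp. The library kit does not mark strand. Identifiers of 47224 of 47937 genes were matched to a later annotation of that build, and 0 count columns were left unused. Counts were TMM-scaled and tested in R 4.3.3 with edgeR 4.0.16 (filterByExpr, quasi-likelihood test, Benjamini-Hochberg adjustment over all genes tested). WT and βEedKO were fitted in 4 groups (11 libraries), and HET against WT in all 6. An SE is the log2 fold change over the root of F. The members and gene lists were chosen with earlier results of these data known. From each list, the text names up to 3 genes called higher and up to 3 called lower at 25 weeks by size, with 1 CPM or more in a group, and all called at 8 weeks. Of the genes so chosen, 1 is not reported here. CPM per kilobase uses the union of a gene's exons. The fits were tested on simulated counts. DESeq2 1.42.0 and other scalings, filters, controls and left-out libraries served as alternatives. RefSeq start windows came from GRCm38.p6.

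Replicates are separate samples in the labels, and no 2 libraries of a group agreed within sampling noise. Nothing in the labels says that replicate numbers mark pairs. Deviations from the group means, over 18828 genes, correlated between same-numbered WT and βEedKO libraries (0.457 and 0.163 at 8 weeks, 0.176 and 0.255 at 25 weeks), so values blocked on replicate number are given where they change a call. For WT and HET the correlations were 0.161 and 0.08 at 8 weeks and 0.0923 at 25 weeks, and no block was read.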

Additional observations from a re-analysis of the deposited data

Results flagged for a closer look

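Of the 37 genes whose difference between βEedKO and WT itself differed between 25 and 8 weeks by edgeR's quasi-likelihood test (Benjamini-Hochberg adjustment over 18685 genes), 1 was a member and 2 were in the other transmitter lists. For Gad1 the 2 ages differed by -2.72 on the log2 scale (adjusted p = 0.00967), which is a description, as Gad1 was chosen with its levels at both ages known. All βEedKO libraries were below all WT libraries at both ages, and the gap was wider at 25 weeks. Leaving out βEedKO replicate 2 at 25 weeks, scaling by library size alone or blocking on replicate number ended the call. For the monoamine oxidase gene Maob it was -1.66 (adjusted p = 0.0424), from 152.3 ± 5.80 and 105.1 ± 9.81 CPM in WT and βEedKO at 8 weeks to 162.4 ± 12.1 and 36.8 ± 5.22 CPM at 25 weeks, and the call was lost in 14 of 18 alternatives, 10 of which left out 1 library. For Gata2, a factor of GABA neurons in brainstem and spinal cord, it was 3.77 (adjusted p = 0.00579), from 3.28 ± 0.904 and 3.51 ± 0.532 CPM at 8 weeks to 3.09 ± 0.538 and 46.2 ± 6.55 CPM at 25 weeks, lost in 1 of 18 alternatives, the replicate block. No group held enough libraries for a test of a single outlying library.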

How the results depend on the processing

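Of 630 alternative values of the members' log2 fold changes compared here, 570 kept direction and side of the threshold, 41 lost and 9 gained the call, and 10 changed sign. Not counted are Slc17a6, Slc17a7 and Slc32a1 in HET, which had at most 1 read in a library, and age differences other than those of Gad1 and Slc18a1. The sign changed for Slc18a3 at 8 weeks (-1.81 to 0.038 leaving out 1 library, 0.67 with the replicate block, 0.93 with the block and library size alone), Slc18a2 at 25 weeks (-0.22 without βEedKO replicate 2, up to 1.91 without WT replicate 2) and, in HET against WT at 25 weeks, Gad1 (-0.31 to 0.42 leaving out 1 library, -0.01 without WT replicate 2, -0.027 with the block), Gad2 (-0.47 to 1.18, -0.62 with the block) and Slc6a5 (-0.11 without HET replicate 1, up to 4.28 without WT replicate 3). At 25 weeks 1234 genes were called between βEedKO and WT, 2088 by DESeq2, 2649 with WT and HET pooled as control, 1990 with the block and library size alone, and 391 to 1610 leaving out 1 library. The lists gave 42, 26 with the block, 66 pooled, and 17 to 50. At 8 weeks 81 genes were called, 137 with no filter on low counts, 393 by DESeq2, 0 with the replicate block, 503 pooled, 266 with the block and library size alone, and 18 to 135 leaving out 1 library. The lists gave 3, then 6, 10, 0, 15, 8, and 1 to 5. The difference between the ages gave 37, 13 with library size alone, 73 with no filter, 341 by DESeq2, 2 with the block, 90 with all 16 libraries in the fit, 242 with the block and library size alone, and 10 to 40 leaving out 1 library. HET against WT gave 0 at 8 weeks, 5 with no filter, 413 by DESeq2 and 0 to 601 leaving out 1 library, and at 25 weeks 0, 3 by DESeq2 and 0 to 0. The cause of these changes was not tested. The block called 0 genes in HET at 25 weeks, which shares 1 number with WT. That block, the block with library size alone and the states of basic transcript starts were chosen after seeing the data, and 7 members stayed in L or M by the latter. Library size alone moved the median log2 difference of all genes from 0.03 to 0.26 at 25 weeks and from 0.00 to 0.20 at 8 weeks. The ratio of CG was above the median in 7 of 9 members in the 100 bases around the start as well. Depth limits Slc32a1 at 8 weeks and Slc17a8.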

Other observations

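The transcription factor genes given here were chosen after their values were seen. Each was called higher in βEedKO at 25 weeks by edgeR without the replicate block. They come from the list of transmitter phenotype factors, of which 14 of 24 were called higher and 1 lower. Not called were, among others, Ptf1a (log2 difference 1.47), Dlx1 (2.73), Dlx2 (3.68), Dlx5 (4.11), Lhx1 (-0.74) and Lmx1b (-0.58). Of factors known from GABA neurons, Gata3 was at 0.0251 ± 0.0434 CPM in WT and 13.8 ± 3.71 CPM in βEedKO, Tal1 at 1.39 ± 0.691 and 22.3 ± 1.27 CPM, and Lbx1 at 0.0251 ± 0.0434 and 11.2 ± 0.611 CPM. Factors that favour the glutamate phenotype of spinal neurons were higher too, with Tlx1 at 0.0508 ± 0.0440 and 13.2 ± 0.196 CPM and Tlx3 at 0 and 1.12 ± 0.407 CPM. Fev, a factor of serotonin neurons, was at 3.13 ± 2.03 and 23.8 ± 6.42 CPM. At 8 weeks Gata3, Lbx1 and Tlx1 were at 0.143, 0.123 and 0.143 CPM in βEedKO, and Tal1 at 1.22 ± 0.713 CPM.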
